A study of Mus musculus with 12 samples.

Results

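The 10 genes described here encode enzymes that make L-serine, turn it into D-serine or glycine, and break D-serine and glycine down again. They are Phgdh, Psat1 and Psph of serine synthesis, Srr and Dao of D-serine metabolism, Shmt1 and Shmt2 at the step between serine and glycine, and Gldc, Amt and Gcsh of the glycine cleavage system. They were picked by gene symbol from the 24421 entries of the deposited expression table, with earlier results of these data known. All 10 were in the table, and all 10 were among the 15464 genes that passed a filter on low values (10 or more in 3 or more libraries). The animals were Aldh1l1-GFP reporter mice on the C57/BL6J background, in which the promoter of Aldh1l1, a gene that astrocytes express, drives green fluorescent protein (GFP). Cerebella were collected at 4 postnatal ages, day 1 (P1), day 7 (P7), day 14 (P14) and day 28 (P28), and GFP+ cells were isolated by flow sorting. Each age had 3 libraries, 12 in all, and every age carries the same genotype with no other allele or treatment named. Mice of both sexes were used in the study, and the animals behind each library are not given in the labels, so p-values here measure the spread between libraries, which may in part be technical.

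L-serine is made from a glycolytic intermediate in successive steps by Phgdh, Psat1 and Psph, and in the brain these enzymes sit mainly in astrocytes and radial glia, from which neurons obtain serine. Serine racemase (Srr) converts L-serine to D-serine, a co-agonist of NMDA receptors, and D-amino acid oxidase (Dao) degrades D-serine, an activity for which astrocytes of the cerebellum and hindbrain are known. Serine hydroxymethyltransferases (Shmt1 in the cytosol, Shmt2 in mitochondria) split serine into glycine and a one-carbon unit carried by folate, and the mitochondrial glycine cleavage system (the decarboxylase Gldc, the aminomethyltransferase Amt, the lipoyl carrier Gcsh and the shared dehydrogenase Dld) breaks glycine down to carbon dioxide, ammonia and a further one-carbon unit.

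The promoters of the 4 genes with the clearest changes between ages are shown first, because the values below describe RNA levels over the ages and these windows hold the start sites of that RNA. Each window runs from 250 bases before to 50 bases after an annotated start, on the gene's strand, from RefSeq on build GRCm38.p6, and all 10 genes had at least 1 window. Capitals mark the nuclear factor I core, TTGGC or its reverse complement GCCAA, the repeated unit of the motif bound by factors that act in astrocyte development. Dao is shown with 2 of its windows, since its annotated starts differ in these letters. Psat1 has another window, chr19:15924573-15924872, which holds no such core and is not shown.
Dao, first start, chr5:114003485-114003784, plus strand: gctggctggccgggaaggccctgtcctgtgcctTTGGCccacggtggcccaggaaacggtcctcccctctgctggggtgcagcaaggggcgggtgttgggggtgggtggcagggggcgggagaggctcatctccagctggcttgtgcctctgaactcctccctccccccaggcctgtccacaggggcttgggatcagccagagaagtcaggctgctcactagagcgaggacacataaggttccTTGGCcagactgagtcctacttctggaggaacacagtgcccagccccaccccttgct
Dao, downstream start, chr5:114004558-114004857, plus strand: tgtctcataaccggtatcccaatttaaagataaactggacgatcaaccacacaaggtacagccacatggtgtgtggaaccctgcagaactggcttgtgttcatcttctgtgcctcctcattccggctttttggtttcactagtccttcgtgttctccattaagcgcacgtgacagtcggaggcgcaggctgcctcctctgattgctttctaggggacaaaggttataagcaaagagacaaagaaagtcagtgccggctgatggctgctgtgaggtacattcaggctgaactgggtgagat
Phgdh, chr3:98339920-98340219, minus strand: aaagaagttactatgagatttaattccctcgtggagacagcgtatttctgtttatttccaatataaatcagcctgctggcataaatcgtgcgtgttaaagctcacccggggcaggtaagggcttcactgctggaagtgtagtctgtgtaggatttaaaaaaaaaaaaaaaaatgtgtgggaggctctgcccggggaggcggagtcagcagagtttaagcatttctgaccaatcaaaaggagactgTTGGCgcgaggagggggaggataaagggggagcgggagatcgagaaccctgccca
Psat1, chr19:15925010-15925309, minus strand: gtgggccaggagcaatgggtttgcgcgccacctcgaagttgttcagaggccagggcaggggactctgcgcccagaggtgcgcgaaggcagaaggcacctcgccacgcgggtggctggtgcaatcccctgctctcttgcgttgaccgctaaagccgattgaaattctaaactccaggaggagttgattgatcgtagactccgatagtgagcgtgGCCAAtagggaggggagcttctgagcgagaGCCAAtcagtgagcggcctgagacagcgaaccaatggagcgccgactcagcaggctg
Gldc, chr19:30175392-30175691, minus strand: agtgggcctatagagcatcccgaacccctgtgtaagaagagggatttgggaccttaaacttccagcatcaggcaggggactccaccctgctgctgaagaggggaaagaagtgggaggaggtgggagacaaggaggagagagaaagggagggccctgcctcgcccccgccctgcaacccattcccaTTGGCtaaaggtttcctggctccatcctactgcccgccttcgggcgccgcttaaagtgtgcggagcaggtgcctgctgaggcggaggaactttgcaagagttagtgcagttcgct
On either strand, this core was in at least 1 window of 7 of the 10 genes, and 46.708% of all 32851 mouse windows of this length hold it. The count by gene is not on the scale of this share of windows, since Dao and Psat1 have more than 1 window. Of the 10 cores counted in the members' windows, 5 overlapped the letters CCAAT or ATTGG of the CCAAT box, a general promoter element that 37.408% of all windows hold, and both cores of Psat1 and that of Gldc were among them. The 10 count 1 Dao site in each of 2 overlapping windows, at -7 from the first start and -156 from another start. The first Dao window held the core at positions -217 and -7 from the start, and the downstream one held none. The downstream Dao window held the E-box letters CANNTG, the motif of basic helix-loop-helix factors, as CACATG at position -188 and CACGTG at -85, and 72.314% of all windows hold an E-box. TGATGNAA, the core of the amino acid response element through which serine synthesis genes are known to be induced, was in no window of the 10 genes and in 3.969% of all windows, and the full palindromic nuclear factor I site was likewise in none of them and in 0.037% of all. These matches describe the letters and do not show binding.

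Values are normalized counts, that is, reads per gene divided by the library's size factor as the authors computed it, and the reads counted on genes ran from 6399499 to 14733985 per library. Between 17464 and 17785 genes had a read at P1, 17715 and 18051 at P7, 16197 and 16642 at P14, and 14249 and 14749 at P28. All 9 astrocyte markers were found (Aldh1l1, Slc1a3, Slc1a2, Aqp4, Gja1, Aldoc, Sox9, Fabp7 and Gfap), and their summed normalized count was between 68662 and 83857 at P1, 30289 and 57325 at P7, 141829 and 179799 at P14, and 335617 and 393038 at P28. Within this list Fabp7 was lower at P28 than at P1, at 4859 to 6215 against 15145 to 16664. Aldh1l1 was lower too, at 2451 to 3338 against 3841 to 6441. Each of the others was higher in every P28 library than in any P1 library. Markers of other cells were present and moved with age. The 10 oligodendrocyte lineage markers summed to values between 8183 and 12613 at P1, 21697 and 31723 at P7, 280763 and 350411 at P14, and 98626 and 135497 at P28. The 5 choroid plexus markers summed to values between 1147 and 2597 at P1, 48307 and 128303 at P7, 1312 and 109825 at P14, and 17922 and 182516 at P28. The 10 granule neuron and precursor markers summed to 2699 to 5410 at P1 and to between 9880 and 20455 at the later ages, with Gabra6 at 0 at P1 and Atoh1 at 0 at P14 and P28. The 10 proliferation genes summed to values between 9556 and 16236 at P1, 21173 and 26856 at P7, 1406 and 1973 at P14, and 617 and 962 at P28, where Cdk1 was at 0. The part of these cells in the values below was not tested, and in such bulk libraries fewer cells of a type and less RNA per cell cannot be told apart.

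The members did not move as a block. Phgdh and Psat1 fell from P1 to P7, Psat1 and Dao rose from P7 to P14, and Dao, Gldc, Phgdh and Gcsh rose from P14 to P28, while Shmt2 was lower at P28 than at P1. A gene was called at a Benjamini-Hochberg adjusted p under 0.05 in the limma fit on log2(value + 1), adjusted over all 15464 genes, and this scale understates the change of a gene with few reads. From P1 to P7, 2 of the 10 were called, both lower, and 7.7% of all genes were called at this step, 3.47% of all as higher and 4.24% as lower. From P7 to P14, 2 of the 10 were called, both higher, and 20.9% of all genes were called, 10.8% as higher and 10% as lower. From P14 to P28, 4 of the 10 were called, all higher, and 14.4% of all genes were called, 5.68% as higher and 8.76% as lower. Between P1 and P28, 3 members were called higher and 1 lower, and 34.6% of all genes were called, 14.6% as higher and 20% as lower. With library totals alone in place of the authors' size factors, 5 members were called between P1 and P28, of which 2 were higher and 3 lower, and at the P14 step 2 were higher and 1 lower. Under that scaling 8.85% of all genes were called higher and 33.2% lower between P1 and P28, and 7.78% and 15.8% at the P14 step. At the study's own threshold, an unadjusted p under 0.05 with a log2 fold change over 0.75, 4, 3, 7 and 4 members were called in these comparisons, beside 14.2%, 26.2%, 24.1% and 39.3% of all genes.

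**Figure D1:**
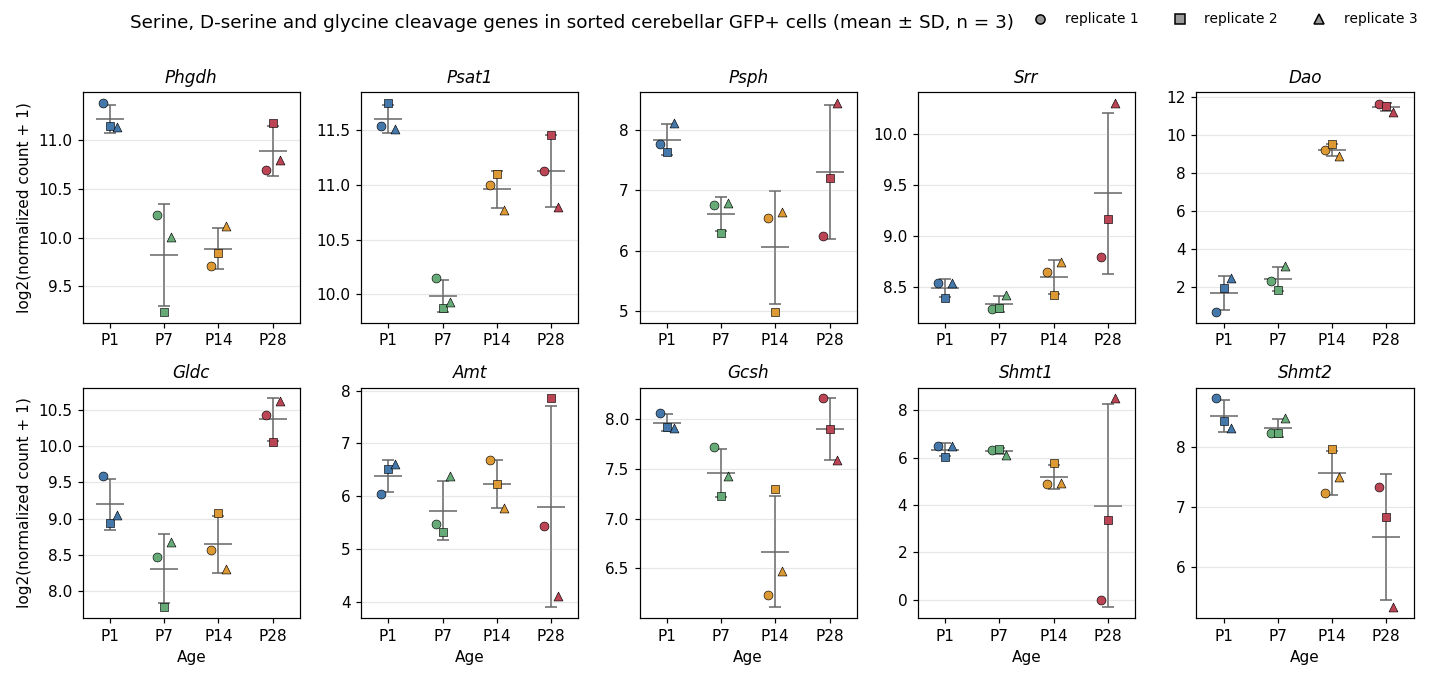
Each panel plots log2(normalized count + 1) of 1 gene against age, with 1 point per library (circle, square and triangle for replicates 1, 2 and 3) and bars for the mean ± SD of 3 libraries. Dao climbs from under 8 normalized counts at P1 and P7 to 2375 or more at P28, Phgdh lies low at P7 and P14 and Psat1 at P7, and the P28 libraries of Shmt1 and Amt lie far apart.

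The median log2 fold change of the 10 members was -0.58 from P1 to P7, 0.17 from P7 to P14, 0.91 from P14 to P28 and -0.40 between P1 and P28. Over all genes tested it was 0.04, -0.09, -0.12 and -0.24. By their means, 5 members were highest at P1 and 5 at P28, and P7 was the lowest age for 5 of them. For Amt and Shmt1 the highest mean, at P28, rests on 1 library each, and their fitted log2 fold changes at P28 against P1 were -0.59 and -2.37, neither of them called. The libraries of the ages did not overlap for 5, 4, 5 and 5 of the 10 in the same comparisons, against 38.3%, 46.1%, 26.1% and 41.9% of all genes. The spread between the libraries of an age was widest at P28, where the median range over 3 libraries was 1.08 on the log2 scale for the members and 1.25 for all genes tested. At P28, replicate 3 was the library farthest from the others for 7 of the 10 members, and for 35.3% of all genes tested. P14 replicate 2 was farthest at its age for 7 members (31.7% of all genes) and P1 replicate 1 for 6 (27.9%). Without P28 replicate 3 the members called were 2, 2, 5 and 4 in these comparisons, beside 9.93%, 25.4%, 15.1% and 35.4% of all genes. Shmt1 was then called as lower in the last step and between P1 and P28, and Srr was no longer called, so that P28 against P1 had 2 higher and 2 lower.

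**Figure D2:**
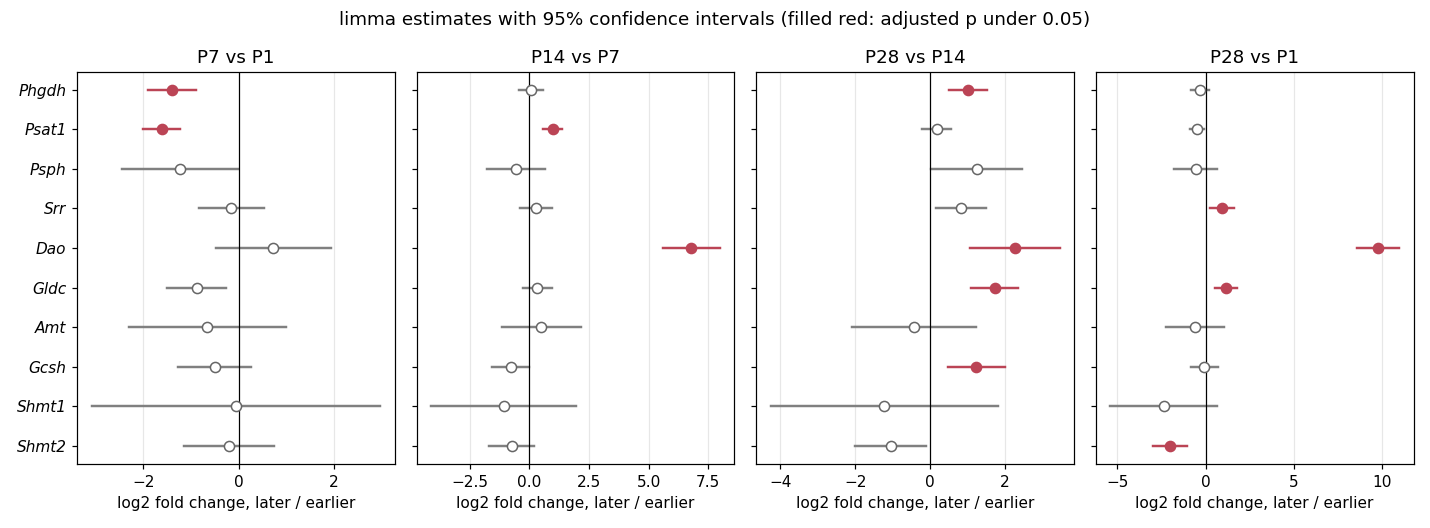
Each panel shows, for 1 comparison of ages, the limma log2 fold change of the 10 genes (later over earlier age, horizontal axis) with its 95% confidence interval, and filled red points mark an adjusted p under 0.05. Dao has the largest change of the 10 at P14 against P7 (6.79) and at P28 against P1 (9.77), and the intervals of Shmt1 and Amt span 0 in every panel.

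Dao (chr5:114003703-114025682, plus strand, GRCm38), the oxidase that degrades D-serine, was at 0.615, 2.86 and 4.54 normalized counts at P1 and at 3.98, 2.62 and 7.75 at P7. It was at 591, 745 and 479 at P14, and at 3206, 2992 and 2375 at P28. The P1 and P7 libraries overlapped, every P14 library lay above all of them, and every P28 library lay above all P14 libraries. The P1 and P7 values rest on 11 and 17 reads in all, against 1703 at P14 and 6487 at P28, so Dao was close to the limit of detection at both early ages. Its log2 fold change was 6.79 from P7 to P14 (SE 0.56, 95% confidence interval 5.59 to 7.99, adjusted p = 1.89e-06), second in size among the rises of the 15464 genes, and the mean was 126-fold higher. With a pseudocount of 10 this change was 5.37, and with 0.1 it was 7.07. From P14 to P28 it rose by a further 2.25 (adjusted p = 0.0169), a call that ended without P14 replicate 1 (2.25, adjusted p = 0.0549) or P14 replicate 3 (2.09, adjusted p = 0.0686), and between P1 and P28 the change was 9.77 (adjusted p = 2.04e-08). Over the same ages the summed astrocyte markers given above were higher, though Fabp7 and Aldh1l1 of that list were lower at P28 than at P1. The summed proliferation genes were lower, and the part of either sum in the Dao values was not tested.

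Srr (chr11:74906359-74925948, minus strand), the racemase that makes D-serine, was at 370.4, 334 and 370.3 normalized counts at P1, at 309.7, 313 and 343 at P7, at 398, 341 and 427 at P14, and at 441, 572 and 1260.4 at P28. The first 3 ages overlapped, and P28 lay above them, with replicate 3 more than replicates 1 and 2 added together. No consecutive step was called, and the log2 fold changes were -0.15, 0.27 and 0.82 with adjusted p of 0.894, 0.625 and 0.0982, the last being 0.0305 in DESeq2. P28 against P1 was called at 0.93 (adjusted p = 0.0341), and this call ended without P28 replicate 3 (0.49, adjusted p = 0.119), without any 1 of the P1 libraries (adjusted p of 0.0722 to 0.0867), with library totals alone (0.50, adjusted p = 0.204) and with only the ages compared (adjusted p = 0.116). Srr shares 1159 exonic bases with Tsr1 and 126 with Smg6 on the other strand, and whether strand was used in counting is not given in the sources used here. Tsr1 was also highest in P28 replicate 3, at 673 normalized counts against 317 and 196 in the other P28 libraries, and how far shared reads entered the Srr value was not tested.

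The log2 ratio of Dao to Srr within a library, taken on (normalized count + 1) so that the scaling cancels except through the added 1, was between -7.85 and -6.07 at P1, -6.44 and -5.30 at P7, 0.17 and 1.13 at P14, and 0.91 and 2.86 at P28. The ratio was negative in all 6 early libraries and positive in all 6 later ones, which did not overlap, and since it is not corrected for gene length its sign does not order the levels of the 2 genes. The mean ratio was 1.34 ± 1.06 over P14 and P28 and -6.34 ± 0.85 over P1 and P7 (SD, n = 6), a difference of 7.68 (exact two-sided permutation test over 924 splits, p = 0.00216, the smallest this test can give, adjusted p = 0.00649 over the 3 ratios compared). Because Dao had so few reads at P1 and P7, this difference was 6.01 with a pseudocount of 10 and 8.12 with 0.1, at the same permutation p.

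**Figure D3:**
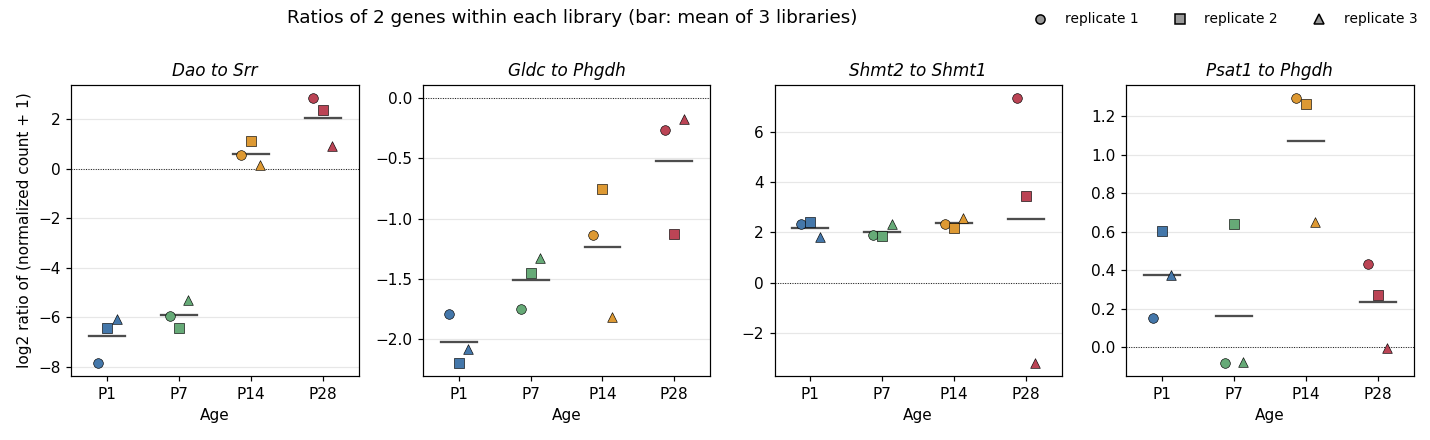
Each panel plots the log2 ratio of 2 genes' (normalized count + 1) within a library against age, 1 point per library, with a bar for the mean of 3. Dao to Srr lies at or under -5.30 in every P1 and P7 library and at or above 0.17 in every P14 and P28 library, while Shmt2 to Shmt1 spans -3.19 to 7.34 at P28.

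Among the genes of serine synthesis, Phgdh (chr3:98313170-98339990, minus strand), the dehydrogenase that opens the pathway, was at 2672, 2258 and 2249 normalized counts at P1, at 1201, 601 and 1024 at P7, at 832, 913 and 1113 at P14, and at 1656, 2315 and 1781 at P28. The P7 and P14 libraries overlapped and lay below every P1 and P28 library, and those of P1 and P28 overlapped. The fall of Phgdh from P1 to P7 was a log2 fold change of -1.40 (SE 0.24, 95% confidence interval -1.90 to -0.89, adjusted p = 0.00221) and its rise from P14 to P28 was 1.00 (SE 0.24, adjusted p = 0.0130). The later rise had an adjusted p of 0.0528 without P14 replicate 1. P28 differed from P1 by -0.33 (95% confidence interval -0.84 to 0.18, adjusted p = 0.298), and with library totals alone by -0.77 (adjusted p = 0.0155).

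Psat1 (chr19:15904678-15947337, minus strand), the aminotransferase of the next step, was at 2975, 3439 and 2915 normalized counts at P1, at 1137, 938 and 971 at P7, at 2043, 2198 and 1748 at P14, and at 2237, 2800.0 and 1776 at P28. Every P7 library lay below all others, and the P14 and P28 libraries overlapped. It fell by 1.61 from P1 to P7 (SE 0.18, adjusted p = 1.11e-04) and rose by 0.97 from P7 to P14 (SE 0.18, 95% confidence interval 0.59 to 1.36, adjusted p = 0.00144), and the last step was 0.17 (adjusted p = 0.572). P28 was below P1 in all libraries by -0.47, which missed the threshold (adjusted p = 0.0546) and passed it without P28 replicate 2 (-0.64, adjusted p = 0.0136) and with library totals alone (-0.91, adjusted p = 0.00137).

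Phgdh and Psat1 both fell from P1 to P7, and of the later steps that to P14 was called for Psat1 and that to P28 for Phgdh. The log2 ratio of Psat1 to Phgdh was -0.08 to 0.64 at P7 and 0.65 to 1.29 at P14, a difference of 0.91. This comparison was chosen after the values were seen, and with 3 against 3 libraries the exact two-sided permutation test gave p = 0.1, the smallest it allows over 20 splits, so a difference in timing was not established.

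Psph (chr5:129765558-129787449, minus strand), the phosphatase that releases L-serine, was at 217, 197 and 276 normalized counts at P1, at 107, 77.2 and 109 at P7, at 92.1, 30.7 and 98.8 at P14, and at 74.5, 146 and 348 at P28. The P7 libraries lay below those of P1, as for Phgdh and Psat1, and the P28 libraries ran from below the lowest P7 value to above the highest P1 value. The log2 fold change from P1 to P7 was -1.23 (95% confidence interval -2.45 to -0.01, adjusted p = 0.252), with an adjusted p of 0.0103 when only the P1 and P7 libraries were fitted. The step from P14 to P28 was 1.24 (adjusted p = 0.160) and 1.77 without P28 replicate 1 (adjusted p = 0.0405). Psph shares 452 exonic bases with Cct6a on the other strand, which was at 848 to 1535 normalized counts over the 12 libraries, and how far shared reads entered the Psph values was not tested.

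Of the glycine cleavage system, Gldc (chr19:30098447-30175429, minus strand), the glycine decarboxylase, was at 770.3, 492 and 530.1 normalized counts at P1, at 356, 219 and 408 at P7, at 378, 539.5 and 315 at P14, and at 1382, 1059 and 1577 at P28. Every P28 library lay above all others, and every P7 library lay below those of P1. Gldc rose by 1.72 from P14 to P28 (SE 0.29, 95% confidence interval 1.10 to 2.34, adjusted p = 0.00224), a call that held without any 1 of the 12 libraries. P28 was also above P1, by 1.17 (SE 0.29, adjusted p = 0.00656). The step from P1 to P7 was -0.88 (adjusted p = 0.0873), with an adjusted p of 0.0487 in DESeq2 and 0.0465 with only these ages fitted.

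Gcsh (chr8:116981810-116993537, minus strand), which carries the lipoyl arm between the subunits, was at 266, 241 and 239 normalized counts at P1, at 209, 149 and 171 at P7, at 74.1, 157 and 88 at P14, and at 295, 238 and 192 at P28. P28 overlapped P1 and lay above every P14 library, and P14 overlapped P7. Its rise from P14 to P28 was 1.23 (SE 0.35, adjusted p = 0.0324), and this call did not hold throughout, since the adjusted p was 0.0507 to 0.109 without P14 replicate 1 or 3, P1 replicate 1, P7 replicate 1 or 3, or P28 replicate 1, 0.0719 with library totals alone and 0.192 with only the ages compared.

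Amt (chr9:108296853-108302302, plus strand), the aminomethyltransferase, was at 65.2, 90.7 and 96.9 normalized counts at P1, at 43.8, 39.3 and 82.2 at P7, at 102, 74.1 and 54.3 at P14, and at 42.4, 231 and 16.2 at P28. The P28 libraries enclosed the values of all other ages. No comparison of Amt was called, and its log2 fold change from P14 to P28 was -0.43 with a 95% confidence interval of -2.08 to 1.22. Without P28 replicate 2, P28 was lower than P1 by -1.62 (adjusted p = 0.0480), so that 1 library decides its level at P28. Gldc and Gcsh were thus called from P14 to P28 and Amt was not, and a difference between them was not tested.

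Set against serine synthesis, the log2 ratio of Gldc to Phgdh within a library was between -2.20 and -1.79 at P1, -1.75 and -1.32 at P7, -1.82 and -0.76 at P14, and -1.13 and -0.18 at P28. It was higher at the later ages, at -0.88 ± 0.62 over P14 and P28 and -1.77 ± 0.34 over P1 and P7 (SD, n = 6), with overlapping libraries. The difference was 0.89 (exact two-sided permutation test over 924 splits, p = 0.0152, adjusted p = 0.0227 over the 3 ratios).

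Shmt2 (chr10:127517123-127522444, minus strand), the mitochondrial serine hydroxymethyltransferase, was at 447, 342 and 315 normalized counts at P1, at 299, 297 and 355 at P7, at 149, 248 and 179 at P14, and at 161, 113 and 39.2 at P28. P14 and P28 overlapped each other and lay below every P1 and P7 library. No single step was called (-0.20, -0.75 and -1.06, adjusted p of 0.899, 0.270 and 0.121), and P28 against P1 was called at -2.01 (95% confidence interval -2.95 to -1.07, adjusted p = 0.00287). Without P28 replicate 1 the step from P14 to P28 was -1.48 (adjusted p = 0.0288). Of the 10 members, Shmt2 alone had its lowest mean normalized count at P28, although that of Shmt1 there rests on 1 library. The summed proliferation genes were also lowest at P28, and their part in the Shmt2 values was not tested.

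Shmt1 (chr11:60788104-60811718, minus strand), the cytosolic form, was at 88.6, 63.6 and 90.1 normalized counts at P1, at 79.6, 82.5 and 69.0 at P7, at 28.6, 54.0 and 29.3 at P14, and at 0, 9.44 and 366 at P28. The P28 values rest on 0, 8 and 271 reads, and a count of 0 allows up to 3 reads, or 4.38 normalized counts in that library, for counting error only. The P14 libraries lay below those of P7, and P28 held both the lowest and the highest library of the series. No comparison was called. Without P28 replicate 3, the log2 fold change from P14 to P28 was -3.51 (adjusted p = 0.0151) and that between P1 and P28 was -4.64 (adjusted p = 9.34e-04), and with all libraries they were -1.23 and -2.37 (adjusted p of 0.602 and 0.211). The direction at P28 therefore depends on that library, and edgeR, which works on the reads, gave 1.73 and 0.65. Shmt1 shares 184 exonic bases with Smcr8 on the other strand, which was at 361 normalized counts in P28 replicate 3 and at 433 and 385 in the other P28 libraries. How far shared reads entered the Shmt1 values was not tested.

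The log2 ratio of Shmt2 to Shmt1 lay between 1.79 and 2.41 at P1, 1.84 and 2.35 at P7, and 2.18 and 2.57 at P14, but spread over -3.19 to 7.34 at P28. The mean of P14 and P28 exceeded that of P1 and P7 by 0.35 (exact two-sided permutation test over 924 splits, p = 0.643). The sign turned without P28 replicate 1 (-0.63), while without P28 replicate 3 the difference was 1.48 (exact permutation p = 0.0216).

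The order of the members' levels was taken from normalized counts per kilobase of annotated exon. On this scale Phgdh was the highest of the 10 at P1 and P7, at 1264 ± 128 and 498 ± 163 (SD, n = 3), followed by Psat1 at 1059 ± 97.8 and 346 ± 36.3. At P14 Psat1 was first at 680.0 ± 77.8, ahead of Phgdh at 503 ± 76.4 and Dao at 288 ± 63.6. At P28 Dao was first at 1361 ± 206, followed by Phgdh at 1013 ± 185 and Psat1 at 774 ± 175. Dao rose from 0.0409% of the summed level per kilobase of the 10 genes at P1 to 14.9% at P14 and 33.1% at P28, while the share of Phgdh went from 40.7% to 24.6% and that of Psat1 from 34.1% to 18.8% between P1 and P28. Among the glycine cleavage genes at P28, Gldc was at 356 ± 69.4, Gcsh at 168 ± 35.8 and Amt at 46.4 ± 56.3 per kilobase.

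The genes around the 10 members were described from lists of the pathway, chosen like the members with earlier results of these data known. Of 14 transporters of serine, glycine and their exchange partners, 1 rose and 3 fell at the first step, 3 rose and 2 fell at the second, 3 rose and 1 fell at the last, and over the whole span 5 rose and 3 fell. Over all genes, drawn as dashed lines in the plot of list calls, 3.47% were called higher and 4.24% lower at the first step. These shares were 10.8% and 10% at the second step, 5.68% and 8.76% at the last, and 14.6% and 20% over the whole span. At the first step DESeq2 called 3 transporters higher and 3 lower, and edgeR called 3, each lower. Over all genes DESeq2 called 870 higher and 988 lower of 20205 at this step, and edgeR 489 higher and 604 lower of 15575. Slc6a9, the glial glycine transporter, lay between 1122 and 1663 normalized counts at P1, 228 and 634 at P7, 1877 and 2458 at P14, and 2162 and 3180.0 at P28. It fell from P1 to P7, as Phgdh and Psat1 did, by a log2 fold change of -1.73 (adjusted p = 0.00337), and rose by 2.34 to P14 (adjusted p = 1.02e-04), and no P7 library overlapped the other ages. Slc1a4, an exchanger of serine in astrocytes, fell by 1.20 from P1 to P7 (adjusted p = 0.00606), from 2447 to 3785 down to 1074 to 1362 normalized counts.

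Slc38a1 and Slc38a3, which carry neutral amino acids, rose at the later ages. From P1 to P7 limma had called Slc38a1 higher, which edgeR did not, and Slc38a3 lower. Slc38a3 was at 1412 to 2089 normalized counts at P1. It went from 873 to 1108 at P7 to 2319 to 2629.9 at P14 (log2 fold change 1.26, adjusted p = 1.23e-04). Slc38a1 went from 5034 to 6639 at P14 to 16218 to 18152 at P28 (1.52, adjusted p = 5.69e-04), and stood 2.82 above P1 (adjusted p = 2.19e-07). Slc1a5, a further neutral amino acid exchanger, had 2, 1 and 1 reads in the P28 libraries and 90 to 139 reads in those of P14 (adjusted p = 2.73e-04), and no fold change is given because so few reads remain.

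**Figure D4:**
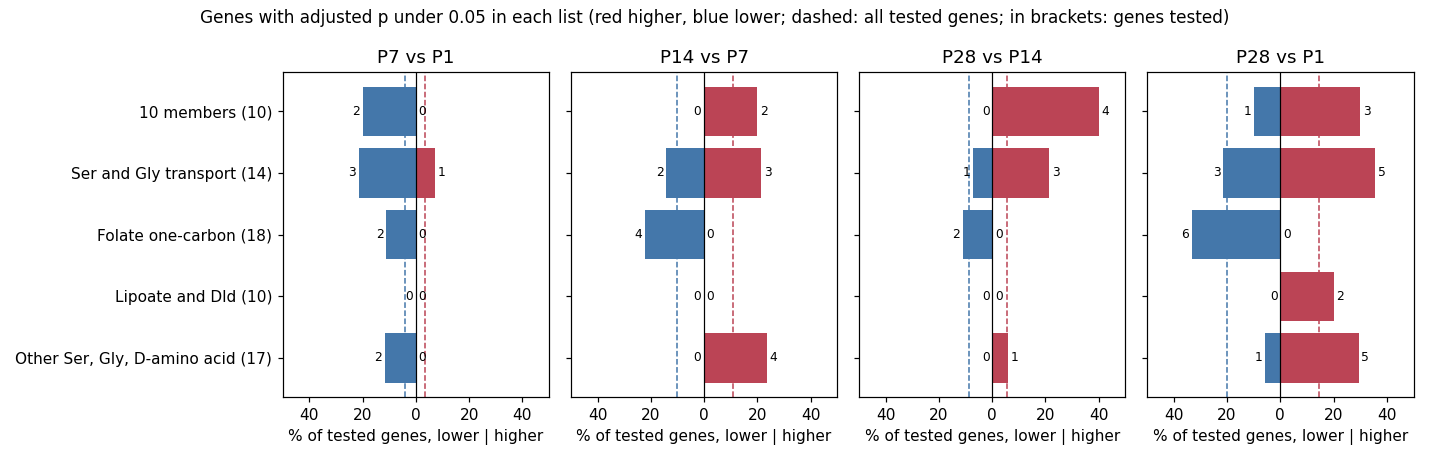
Bars give the percentage of tested genes in each list called higher (red, right) or lower (blue, left) in each comparison of ages, with the number of genes at the bar's end, the number tested in brackets and dashed lines for all 15464 genes. In this limma fit the folate bars point to lower in all 4 comparisons, which other rules of calling do not share, and the members have 4 higher calls of 10 at P28 against P14.

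Of 19 genes of folate one-carbon metabolism, which use the carbon that serine and glycine supply, 18 were tested (Ftcd was under the filter). In the same comparisons limma called 2, 4, 2 and 6 of them, each lower. Over all genes 7.7%, 20.9%, 14.4% and 34.6% were called, and 4.24%, 10%, 8.76% and 20% were called lower. Other rules also gave higher calls: at P28 against P14, DESeq2 and the study's threshold each gave 2 higher and 2 lower, and at P28 against P1 DESeq2 gave 4 and 6, edgeR 2 and 5 and the study's threshold 4 and 8. Over all genes, higher and lower, DESeq2 gave 1423 and 1873 and the study's threshold 1211 and 2514 at P28 against P14. At P28 against P1, DESeq2 gave 2851 and 3194 of 20205 genes, edgeR 2472 and 2490 of 15575, and the study's threshold 2407 and 3676 of 15464. With only the ages compared, limma called 2 higher and 2 lower at the first step and 0 at the last, and without P28 replicate 3 it called 2 higher and 6 lower at P28 against P1. All genes had 1349 higher and 1471 lower, 393 and 373, and 2294 and 3181 calls in these 3 fits. With all libraries in the limma fit, the list's median log2 fold change at the last step was 0.22, against -0.12 over all genes, so that its median and its calls differed in sign. Aldh1l1, the cytosolic folate dehydrogenase whose promoter drives the GFP used in the sort, was at 3841 to 6441 normalized counts at P1 and 936 to 1985 at P7, a log2 fold change of -1.80 (adjusted p = 4.66e-04). Its level thus was not constant over ages, and the sort selects on a reporter under its promoter. Aldh1l2, the mitochondrial counterpart, fell by 1.68 from P7 to P14 (adjusted p = 0.00385) and then by a log2 fold change of -1.47 to P28 (adjusted p = 0.0157, but 0.0598 without P14 replicate 1 and 0.206 with only the ages compared), and stood at -2.47 at P28 against P1 (adjusted p = 1.21e-04). Tyms, the thymidylate synthase of DNA replication, went from 219 to 298 normalized counts at P7 to 17.4 to 33.9 at P14 (-3.23, adjusted p = 2.61e-04), over the step at which the proliferation genes went from 21173 or more to 1973 or less. Mthfd1l was at 72.0, 64.5 and 648 at P14 and at 58.5, 9.44 and 0 at P28 (-4.10, adjusted p = 0.0305), and this call ended without P14 replicate 3 (-3.02, adjusted p = 0.143) or P28 replicate 3 (-2.55, adjusted p = 0.0707), with only the ages compared (adjusted p = 0.210) and with a pseudocount of 0.1 (adjusted p = 0.0534). The first step of Mthfd1 was -0.93 (adjusted p = 0.0475), and this p ran from 0.0558 to 0.188 without any 1 of P1 replicates 1 to 3, P7 replicates 1 to 3 or P14 replicate 1, and from 0.0516 to 0.0619 with edgeR, TMM scaling, library totals alone, no filter, a pseudocount of 0.1 or the replicate block.

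The lipoate pathway supplies the cofactor of Gcsh, and Dld reoxidizes it. Of its 10 genes, limma called 0 in each of the 3 consecutive steps, with 0, 2 and 0 at an unadjusted p under 0.05, DESeq2 called 0, 1 and 0, and edgeR called 0 at each. Over all genes limma called 7.7%, 20.9% and 14.4% at these steps and 34.6% between P1 and P28, with 14.6% higher. DESeq2 called 1858, 3935 and 3296 of 20205 genes at these steps, and edgeR 1093, 3055 and 1982 of 15575. Between P1 and P28, 2 of the 10 were called, both higher: Isca1, an iron-sulfur cluster assembly factor, by 0.80 (adjusted p = 0.00951), and Dld by 0.69 (adjusted p = 0.0243). Neither was called with library totals alone (0.37 and 0.26, adjusted p of 0.169 and 0.350) or with only the ages compared (0.0511 and 0.0912), and Dld was not called without P1 replicate 1 (adjusted p = 0.0934) or P28 replicate 3 (0.0890).

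Of 21 other enzymes that use serine, glycine or D-amino acids, 17 were tested (Sds, Tdh, Dmgdh and Agxt2 were under the filter). From P1 to P7, 2 were called, both lower, from P7 to P14, 4 were called, all higher, from P14 to P28, 1 was called, which was higher, and between P1 and P28, 5 were higher and 1 lower. Over all genes 7.7%, 20.9%, 14.4% and 34.6% were called in these comparisons. The 2 calls of the first step became 0 to 6 under the alternatives, and with library totals alone 1 higher and 1 lower were called between P1 and P28. All genes had 651 to 2820 calls at the first step under the alternatives. With library totals alone 8.85% of all genes were called higher and 33.2% lower between P1 and P28. Ddo, the D-aspartate oxidase and close relative of Dao, was at 45.5, 80.0 and 62.1 normalized counts at P1, at 82.0, 62.8 and 133 at P7, at 209, 219 and 190.1 at P14, and at 668, 579 and 799 at P28. P1 and P7 overlapped and each later age lay above the earlier ones, as for Dao. The last step of Ddo was a rise of 1.71 (adjusted p = 0.00821), and P28 stood 3.45 above P1 (SE 0.37, adjusted p = 8.12e-06).

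Cat, the catalase that removes the hydrogen peroxide formed by these oxidases, rose by 0.69 from P7 to P14 (adjusted p = 0.00385), from 1827 to 1932 up to 2987 to 3111 normalized counts. Its P1 libraries lay at 2080 to 2788, above those of P7. Gatm, which uses glycine to make the creatine precursor, went from 970.0 to 1399.6 at P1 to 701 to 754 at P7 (-0.71, adjusted p = 0.0393) and to 2464 to 3222 at P14 (1.96, adjusted p = 8.02e-06). The fall of Gatm at P7 ended as a call without any 1 of P1 replicates 1 and 2, P7 replicates 1 to 3 and P14 replicates 1 and 2 (adjusted p of 0.0504 to 0.177) and with library totals alone (0.0615). Cbs, which condenses serine with homocysteine, was at 1090.2, 1317 and 1114 at P1 and at 632, 251 and 722 at P7 (-1.27, adjusted p = 0.0338). It was not called without any 1 of the P1 libraries, P7 replicate 2 or P14 replicate 2 (adjusted p of 0.0529 to 0.125), or with edgeR (0.0590).

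Genes with the most similar time courses were sought among 10204 genes with a mean of at least 100 normalized counts, by the root mean square difference of the 3 consecutive log2 fold changes. Nearest to Phgdh were Rragd (0.057), Acot2 (0.062) and Antxr1 (0.098), and nearest to Gldc were Emp2 (0.13), Nat6 (0.16) and Cd44 (0.17). Rragd, for example, had steps of -1.43, 0.15 and 1.04. For Dao, with steps of 0.73, 6.79 and 2.25, the nearest were Fam107a (1.08), Extl1 (1.27) and Gpd1 (1.27). The first 2 of these Dao steps rest on its 11 reads at P1 and 17 at P7. Its distances therefore carry that counting error, and whether its course stands apart was not tested. The step of Fam107a from P7 to P14 was 6.43. These likenesses are descriptions over 4 ages and carry no test.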

How the data were processed

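RNA of GFP+ cells from the cerebellum was sequenced as paired ends from Trio RNA-seq libraries. Per the submitters' processing notes and the methods, the authors mapped reads with STAR (2.5.0a) to the mouse build mm10, counted them per gene on UCSC transcripts, and normalized with DESeq2 (1.30.1 in the notes, and another version in the methods). The deposited values are normalized counts (a signal), reads divided by 1 size factor for each library. Whole reads came back for 100.0% of the values within a tolerance of 0.01, and edgeR on these reads called 1093, 3055, 1982 and 4962 genes in the 4 comparisons. Every column was matched to its library by the labels, although all column names carry P28 whatever the age.

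Ages were compared in R (4.3.3) by limma (3.58.1), applied to log2(value + 1) in 1 fit of all 12 libraries with the trend option, and checked on simulated data. The simulated counts had the same spread setting at every age, so this check does not cover the wider spread at P28. Alternatives were edgeR (4.0.16) with TMM, DESeq2 (1.42.0), other scalings, pseudocounts of 0.1 and 10, other filters, only the ages compared, the study's threshold, the replicate block and each library left out. Ratios of 2 genes were compared with exact permutation tests. Those over 924 splits pool 2 ages on each side, so the spread within a side also holds differences between the pooled ages. Gene models and overlaps came from GENCODE M21 on GRCm38, the build of mm10. The confidence intervals come from the limma fit and rest on the spread between libraries, floors cover counting error only, and no 2 libraries of an age were alike within sampling noise (lowest chi-square per gene 9.6). Same-numbered libraries were not taken as pairs.

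The members and lists were chosen with earlier results of these data known. Named genes are the 10 members, the 2 genes of each list with the smallest adjusted p under 0.05 in each comparison, and the 3 genes nearest to Dao, Phgdh and Gldc in time course. Of the marker lists, Sept4 of the Bergmann glia list was not found under that symbol, and the other 7 summed to values between 58484 and 78348 at P1, 17789 and 34297 at P7, 67204 and 87158 at P14, and 160547 and 201221 at P28. Most of the Bergmann glia sum at P1 was Ptprz1, at 50418 to 69209 normalized counts there and 10576 to 24184 at P7. Timp4 and A2m were also lower in every P7 library than in any P1 library. Gria1 and Gria4 went the other way, higher in every P7 library, and Gdf10 and Hopx overlapped between P1 and P7. The sums of the Purkinje cell, GABAergic interneuron, microglia, endothelial and red blood cell markers lay between 2.92 and 10557 in every library. Of the 5 red blood cell markers, 4 were at 0 throughout. The GABAergic interneuron sum peaked at P7, where its lowest library was 2451 and its highest 5335. Its highest library was 1505 among those of P1, 440 among those of P14 and 471 among those of P28. The part of these interneurons in the members' P7 values was not tested.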

Additional observations from a re-analysis of the deposited data

How the results depend on the processing

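At P1 and P7 few Dao reads limit the size of its change, and at P28 the spread between libraries limits what can be said of Amt, Shmt1 and Psph. Library totals alone moved the median over all genes, on the log2 scale, from 0.04 to 0.10, -0.09 to -0.34, -0.12 to -0.35 and -0.24 to -0.66 in the 4 comparisons in the order of the report, and the calls over all genes were then 609 higher and 585 lower, 1203 and 2450, 456 and 1936, and 1368 and 5132, against 536 and 655, 1676 and 1551, 878 and 1354, and 2264 and 3086. A filter of at least 10 in every library left 862 higher and 662 lower from P14 to P28 and 2061 and 1576 between P1 and P28.

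The 1191 genes called from P1 to P7 became 1858 with DESeq2, 2820 with only the ages compared, 2198 at the study's threshold and 651 to 1536 with a library left out, and the 2 members called became 4 with only the ages compared and 4 at the study's threshold. From P7 to P14, the filter of at least 10 in every library removed Dao and left 1 member called. From P14 to P28, the 2232 genes became 766 with only the ages compared, 3725 at the study's threshold and 1242 to 2807 with a library left out. The 4 members called there became 3 with only the ages compared and 7 at the study's threshold. With a library left out they ranged from 1 (without P14 replicate 1) and 2 (without P14 replicate 3) to 6. The main fit takes 1 spread per gene for all ages. The median log2 range over 3 libraries, for all genes tested, was 0.48 at P7 and 1.25 at P28. Neither the part of this difference in the changed calls nor any other cause was tested.

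Signs turned only for values that had not been called. Phgdh from P7 to P14 was -0.19 with library totals and -0.23 to 0.27 with a library left out, and Psat1 from P14 to P28 was -0.070 with library totals. Amt from P14 to P28 was 0.34 with DESeq2, 0.33 with edgeR and -1.46 to 0.42 with a library left out, and between P1 and P28 it was 0.20, 0.24 and -1.62 to 0.26. Gcsh between P1 and P28 was -0.22 to 0.093 with a library left out. Shmt1 from P1 to P7 was 0.0034 with library totals and -0.22 to 0.032 with a library left out, from P14 to P28 it was 1.73 with edgeR and -3.51 to 0.76 with a library left out, and between P1 and P28 it was 0.65 with edgeR. The Shmt2 to Shmt1 ratio was -0.29 with a pseudocount of 10 and -0.63 to 1.48 with a library left out. Over the members' fold changes, 852 values under the alternatives kept their direction and side of the threshold, 17 lost the call, 21 gained one and 18 changed sign. Those of named list genes kept both in 529 and lost the call in 43.

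With the replicate number as a block, 2, 2, 4 and 5 members were called in the 4 comparisons, beside 1163, 3153, 2136 and 5334 of all 15464 genes. The fifth member was Psat1 between P1 and P28 (adjusted p = 0.0438), and Mthfd1 from P1 to P7 was not called (adjusted p = 0.0601), and no other call of a member or named gene changed. The numbers were not taken as pairing the libraries, since over 18 same-numbered pairs the correlation of deviations ran from -0.03 to 0.14, 1 of them over 0.1. However, 9 of 12 libraries correlated best with one of their own number, and a factor shared by number was not tested. With the block, the Dao to Srr ratio gave p = 0.00926 and the Gldc to Phgdh ratio p = 0.0278 in exact permutation tests within numbers.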
